A study of Mus musculus with 10 samples.

Results

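House dust mite (HDM) lungs were compared with saline (PBS) lungs by RNA sequencing of whole mouse lung. The libraries were taken by their labels, 3 labelled HDM and 4 labelled PBS out of 10 in the series. Every gene of the count table was used, and 25174 of 53342 were abundant enough to test. The HDM mice were dosed through the nose with HDM on 5 days per week for 3 weeks, and their treatment label names DMSO beside HDM. The PBS mice carry the label PBS alone, so DMSO and HDM cannot be told apart in this comparison. All labels give BALB/c females of 12 weeks and lung as the tissue, and the comparison asks what the allergen does to the lung transcriptome. The remaining 3 libraries came from mice that received the ERK-directed compound SF-3-030 at 10 mg/kg before HDM and enter here as a check of the labels and in 1 alternative fit. The labels do not say whether the libraries of a group came from separate animals, so p-values measure the spread between these libraries. In whole tissue, a change in the number of cells of a type and a change in RNA per cell cannot be told apart.

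HDM extract is the allergen of a common model of asthma. Its proteases and microbial products act on airway epithelium, which releases alarmins such as IL-33. Dendritic cells carry its proteins to lymph nodes, where B cells switch to IgG1 and IgE under IL-4. In the lung, IL-4 and IL-13 act through STAT6 on macrophages, goblet cells and stroma, and CC chemokines draw in eosinophils, monocytes and lymphocytes. Dead cells, mucus and surfactant are cleared by macrophages through lysosomes and lipid receptors.

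Each library held between 38667118 and 59083942 counts. Levels are given in CPM, a gene's counts after scaling the library to a total of 1000000, and HDM 2 or PBS 4 stands for the replicate of that number. Fold changes also carry a scaling between libraries (TMM), which CPM do not, so CPM and fold changes can differ. Overlap between libraries was judged on CPM. Several libraries went against their labels. Ddx3y, a Y-linked gene, lay above 10 CPM in HDM 2, HDM 3 and PBS 2, with 31.5, 20.4 and 30.2 CPM, although all are labelled female. H2-Ea-ps, a class II gene that is intact in BALB/c mice and disrupted in C57BL/6 mice, had 331 to 432 CPM in mice given SF-3-030 and HDM, and 0.107 to 0.953 CPM in the 7 libraries compared here. Summed olfactory and vomeronasal receptor genes, taken as a measure of background reads, were at 90.4, 115 and 230 CPM in HDM 1, 2 and 3, against 469, 59.7, 49.2 and 308 CPM in PBS 1, 2, 3 and 4. On principal components of all tested genes, the component carrying 53.9% of the variance mixed the groups, and the one carrying 20.8% separated every HDM library from every PBS library. On the first of these, PBS 1, HDM 3 and PBS 4, the libraries with most background reads, lay at -130.3, -75.3 and -64.8. The other libraries lay at 14.8 to 105.9. Whether background reads set this component was not tested.

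With edgeR's quasi-likelihood test and a Benjamini-Hochberg adjusted p under 0.05 over all 25174 genes, 454 genes were called higher in HDM lungs (1.8% of those tested) and 19 lower (0.0755%), together 1.88%. Genes of antibody secretion, macrophages, lysosomes, antigen presentation and cell division rose, with 10 of 24 plasma cell genes, 15 of 30 lysosome genes, 10 of 16 genes of class II presentation and 23 of 34 mitosis genes called higher. Without the 3 libraries with Ddx3y above 10 CPM the same lists had 2, 0, 0 and 0 called genes, at positive medians. Genes of the lung's own cells seldom passed the test: 0 of 20 alveolar type 1, 0 of 24 alveolar type 2 and 0 of 37 endothelial genes were called by edgeR or limma-voom, and DESeq2 called 1, 2 and 4 of them. Summed CPM of alveolar type 1 genes was 10940 to 12400 in HDM lungs, against 13950 to 16950 in PBS lungs. For endothelial genes it was 8561 to 9451 against 11750 to 12940, and for alveolar type 2 genes the groups overlapped. These sums carry no TMM scaling. The log2 fold changes, which do, had medians of -0.29 for alveolar type 1 and for endothelial genes, and 0.13 for alveolar type 2 genes. How much of the gap in the sums comes from scaling was not tested. Immunoglobulin genes made up 97 of the 454, 84 of them variable segments. Of the rises, 423 exceeded 2-fold, 178 exceeded 4-fold and 91 exceeded 16-fold, 80 of those 91 being immunoglobulin genes. The called rises had a median log2 fold change of 1.74 and the called falls one of -1.46, against 0.02 over all tested genes. For 452 of the 454 rises and all 19 falls, no HDM library overlapped a PBS library. Over all tested genes, groups without overlap made up 5.3% with HDM higher and 6.16% with HDM lower.

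Without the libraries with Ddx3y above 10 CPM, where HDM 1 stands alone and is assumed to vary like the others, edgeR called 75 genes higher and 0 lower, while 855 higher and 300 lower had an unadjusted p under 0.05. The median of all genes then lay at -0.16 on the log2 scale, a shift of -0.18 that list medians given without these libraries also carry. Without the 3 high-background libraries (PBS 1, PBS 4 and HDM 3), 39 were called higher and 6 lower. Leaving out 1 library moved the number of rises: 88 were called without PBS 4, 94 without HDM 2, 181 without PBS 3, 227 without HDM 3 and 283 without HDM 1, against 496 without PBS 2 and 498 without PBS 1. The called falls numbered 3 without HDM 2, 6 without HDM 1, HDM 3 or PBS 4, 8 without PBS 3, 18 without PBS 2 and 46 without PBS 1. In all, 74 rises (47 of them not immunoglobulin genes) and 2 falls were past the threshold in every one of these 7 fits. Of the 126 called genes named below, 113 were not past the threshold without the Ddx3y libraries and 111 were not without the high-background libraries. Counts over gene lists are followed by their range over these 7 fits, by the libraries that moved them by over 1.5 times, and by the counts without the Ddx3y and the high-background libraries. No list held genes called in both directions. List medians are medians of log2 fold changes and stand beside the 0.02 of all tested genes, and list counts can be read against the 1.8% of all tested genes called higher and the 0.0755% called lower.

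**Figure D1:**
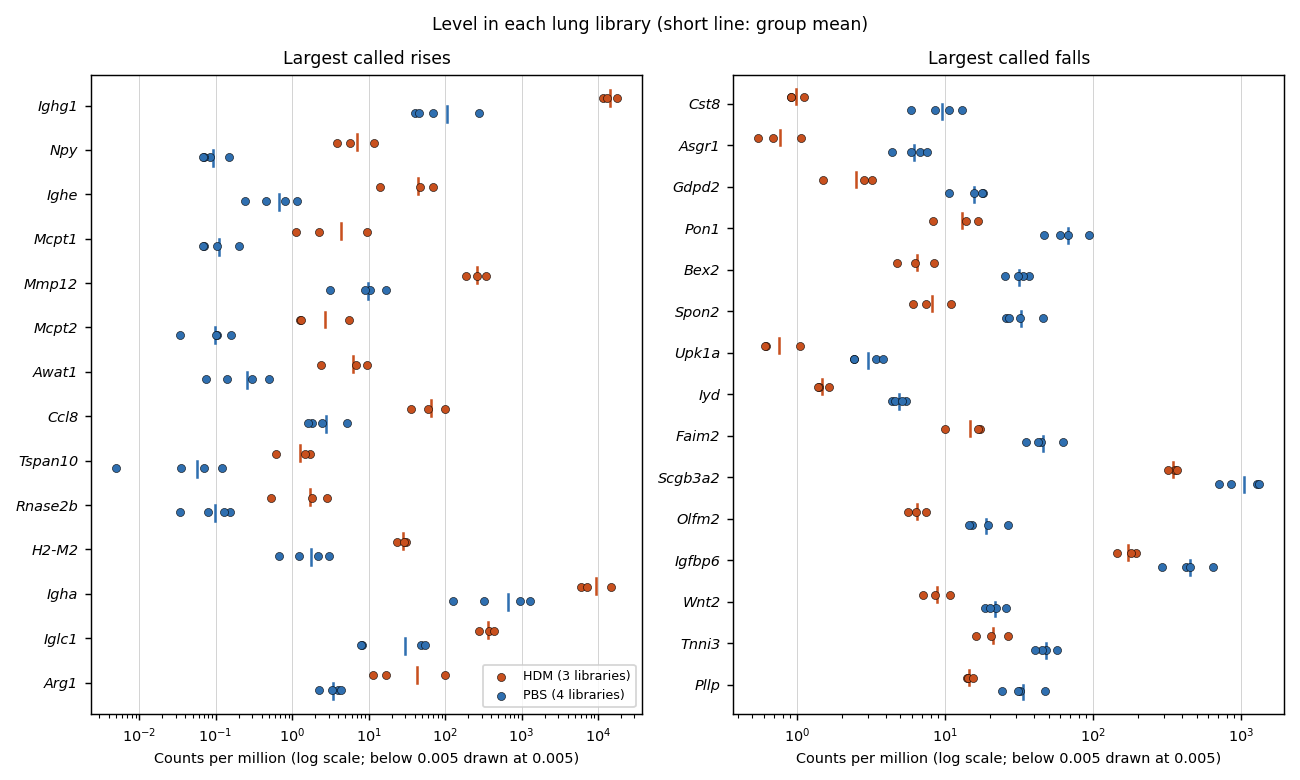
Levels in CPM (log scale) of 14 of the largest called rises and the 15 largest called falls, by the selection rule, in each HDM library (orange, upper of each pair) and each PBS library (blue, lower), with a short line at each group's mean. The rule admitted only genes without overlap between the groups, so the lack of overlap in all 29 genes is not a finding. The HDM points of Arg1 and Mcpt1 are spread more widely than those of H2-M2.

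The largest rises belonged to antibody genes, mast cell and macrophage proteases, and a neuropeptide. Ighg1, the constant region of IgG1 (GRCm38 chr12:113325240-113330523, minus strand), had 11750, 17840 and 13100 CPM in HDM 1, 2 and 3, against 41.1, 274, 70.4 and 45.3 CPM in PBS 1, 2, 3 and 4 (log2 fold change 7.17 ± 0.81 SE, adjusted p 0.00489), and its lowest HDM library was far above PBS 2, the highest PBS library. Ighe, the constant region of IgE, had 14.2, 47.2 and 70.3 CPM in the HDM lungs, against 0.815, 1.16, 0.243 and 0.461 CPM in the PBS lungs (log2 fold change 6.21 ± 0.67 SE, adjusted p 0.0044). Npy, which encodes neuropeptide Y (chr6:49822710-49829507, plus strand), had 3.84, 5.68 and 11.9 CPM in the HDM lungs, against 0.0843, 0.0705, 0.0677 and 0.152 CPM in the PBS lungs (log2 fold change 6.38 ± 0.51 SE, adjusted p 0.00106). All PBS lungs lay below 1 CPM for Npy, and the HDM lungs ranged over several CPM.

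Mcpt1 and Mcpt2, chymase-type proteases of mucosal mast cells, were near the detection limit in PBS lungs. Mcpt1 had 1.12, 2.26 and 9.56 CPM in the HDM lungs, against 0.103, 0.0705, 0.0677 and 0.2 CPM in the PBS lungs (log2 fold change 5.42 ± 0.79 SE, adjusted p 0.0128), HDM 3 standing above the other HDM lungs. Mcpt2 had 1.27, 1.3 and 5.49 CPM in the HDM lungs, against 0.103, 0.102, 0.0338 and 0.16 CPM in the PBS lungs (log2 fold change 4.87 ± 0.7 SE, adjusted p 0.0123), again with HDM 3 highest. The adjusted p of Mcpt1 was 0.964 without the Ddx3y libraries, where its log2 fold change was 3.17, and 0.304 with limma-voom. For Mcpt2 the same values were 0.797, 3.69 and 0.153. Mmp12, the macrophage elastase (chr9:7344381-7369499, plus strand), had 262, 189 and 345 CPM in the HDM lungs, against 3.14, 10.4, 9.08 and 16.7 CPM in the PBS lungs (log2 fold change 4.87 ± 0.53 SE, adjusted p 0.0044), and every HDM lung was more than 10 times the highest PBS lung. Ccl8, a chemokine made by macrophages that binds CCR8 in mice, had 36.2, 60.6 and 99.9 CPM in the HDM lungs, against 2.48, 5.18, 1.83 and 1.62 CPM in the PBS lungs (log2 fold change 4.71 ± 0.51 SE, adjusted p 0.0044).

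Further large rises were in genes that had less than 1 CPM in PBS lungs or a few CPM at most. H2-M2, a class I-like gene of the major histocompatibility complex, had 23.2, 31 and 29.4 CPM in the HDM lungs, against 1.24, 3.09, 0.676 and 2.17 CPM in the PBS lungs (log2 fold change 4.11 ± 0.47 SE, adjusted p 0.00501), a narrow spread in HDM lungs. Awat1, an acyltransferase that makes wax esters, had 2.42, 6.86 and 9.63 CPM in the HDM lungs, against 0.299, 0.141, 0.075 and 0.503 CPM in the PBS lungs (log2 fold change 4.84 ± 0.67 SE, adjusted p 0.0111). Tspan10, a tetraspanin, had 1.73, 1.46 and 0.626 CPM in HDM lungs, against 0.123, 0.0353, 0 and 0.0715 CPM in PBS lungs (log2 fold change 4.6 ± 0.89 SE, adjusted p 0.0372). Rnase2b, of the eosinophil-type ribonuclease family, had 0.53, 1.83 and 2.83 CPM in HDM lungs, against 0.155, 0.129, 0.0338 and 0.0801 CPM in PBS lungs (log2 fold change 4.33 ± 0.7 SE, adjusted p 0.0214). Ighg1, Ighe, Npy, Mmp12, Ccl8 and H2-M2 stayed past the threshold without each single library. Npy and Mmp12 had adjusted p values of 0.0827 to 0.089 without the Ddx3y libraries. Ighg1, Ighe, Ccl8 and H2-M2 had adjusted p values of 0.0506 to 0.0953 without the high-background libraries. Mcpt1 and Mcpt2 had adjusted p values of 0.0506 to 0.0515 without PBS 4. Awat1 had an adjusted p of 0.0564 without HDM 2. Tspan10 had adjusted p values of 0.0533 to 0.179 without any single library other than PBS 1 or PBS 3. Rnase2b had adjusted p values of 0.0529 to 0.104 without HDM 2, HDM 3, PBS 3 or PBS 4.

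Stac2, Slpi and Kynu were chosen after their values were seen. Stac2, which encodes an SH3 and cysteine-rich domain protein, had 19.9, 21.5 and 21.7 CPM in the HDM lungs, against 5.15, 3.87, 3.3 and 3.43 CPM in the PBS lungs (log2 fold change 2.61 ± 0.18 SE, adjusted p 0.000828). Slpi, a secreted inhibitor of neutrophil elastase, had 473, 842 and 1024 CPM in the HDM lungs, against 85.2, 91.2, 58 and 49.9 CPM in the PBS lungs (log2 fold change 3.64 ± 0.33 SE, adjusted p 0.00216). Kynu, the kynureninase of tryptophan breakdown, had 12.1, 14.6 and 12.2 CPM in the HDM lungs, against 2.56, 2.69, 3.7 and 3.37 CPM in the PBS lungs (log2 fold change 2.24 ± 0.24 SE, adjusted p 0.0044). Stac2, Slpi and Kynu stayed past the threshold without each single library. Kynu had an adjusted p of 0.224 without the Ddx3y libraries. Slpi and Kynu had adjusted p values of 0.0563 to 0.0657 without the high-background libraries.

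Immunoglobulin genes took 3.97%, 8.12% and 4.54% of all counts in HDM 1, 2 and 3, against 0.574%, 1.17%, 0.144% and 0.0816% in PBS 1, 2, 3 and 4. The means were 5.54 ± 2.25% in HDM lungs and 0.492 ± 0.50% in PBS lungs (SD, n = 3 and 4), a difference of 5.05 percentage points. The groups did not overlap, and the two-sided exact permutation p was 0.0571, the smallest that 35 splits of 3 against 4 libraries allow. Of the immunoglobulin constant regions, 6 of 12 tested members were called higher (2 to 7 without single libraries, moved by HDM 2, HDM 3, PBS 3 and PBS 4, 2 without the Ddx3y libraries and 0 without the high-background libraries). Their median log2 fold change was 3.08 (3.36 without the Ddx3y libraries and 2.67 without the high-background libraries). Igha, the IgA constant region, had 5937, 14970 and 7080 CPM in the HDM lungs, against 955, 1273, 320 and 128 CPM in the PBS lungs (log2 fold change 4.02 ± 0.73 SE, adjusted p 0.0311), HDM 2 being highest. The lambda light chain constant regions followed, with 110, 199 and 160 CPM in the HDM lungs, against 21.1, 28.5, 6.92 and 7.89 CPM in the PBS lungs for Iglc2 (log2 fold change 3.48 ± 0.51 SE, adjusted p 0.0137). For Iglc1 the levels were 372, 432 and 278 CPM in HDM lungs, against 49.1, 54.8, 8.22 and 8 CPM in PBS lungs (log2 fold change 3.79 ± 0.69 SE, adjusted p 0.0311). How reads shared by near-identical segments were counted is not given in the sources used here, so values of single immunoglobulin genes are uncertain.

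Of the genes of plasma cell identity and secretion, 10 of 24 tested members were called higher (2 to 9 without single libraries, moved by HDM 2, PBS 3 and PBS 4, 2 without the Ddx3y libraries and 0 without the high-background libraries). Their median was 1.01 (0.78 without the Ddx3y libraries and 0.69 without the high-background libraries). Their summed level was 4676 to 6255 CPM in HDM lungs, against 2782 to 3341 CPM in PBS lungs. Eaf2, an elongation factor partner that rises as B cells differentiate, had 6.88, 8.23 and 6.26 CPM in the HDM lungs, against 1.53, 1.6, 0.73 and 0.839 CPM in the PBS lungs (log2 fold change 2.79 ± 0.32 SE, adjusted p 0.00533). Slamf7, a surface receptor of plasma cells and of other leukocytes, had 36.3, 41 and 29.6 CPM in the HDM lungs, against 6.27, 11.2, 6.18 and 6.38 CPM in the PBS lungs (log2 fold change 2.41 ± 0.29 SE, adjusted p 0.00587). Irf4, the transcription factor that drives plasma cell differentiation, had 36.5, 39.2 and 29.4 CPM in the HDM lungs, against 7.57, 13.6, 7.15 and 5.91 CPM in the PBS lungs (log2 fold change 2.19 ± 0.32 SE, adjusted p 0.0123). Mzb1, a chaperone for immunoglobulin assembly, rose to 61.6, 129 and 107 CPM in HDM lungs, against 17.6, 23.3, 9.25 and 5.49 CPM in PBS lungs (log2 fold change 3.03, adjusted p 0.0204). The B cell coactivator Pou2af1 and Edem1, which clears misfolded proteins from the endoplasmic reticulum, had log2 fold changes of 2.0 (adjusted p 0.0128) and 1.56 (adjusted p 0.0104). Eaf2 and Slamf7 stayed past the threshold without each single library. Eaf2 had an adjusted p of 0.129 without the Ddx3y libraries. Eaf2 and Slamf7 had adjusted p values of 0.0677 to 0.0806 without the high-background libraries. Irf4, Pou2af1, Edem1 and Iglc2 had adjusted p values of 0.0556 to 0.0721 without HDM 2 or PBS 4. Mzb1 had adjusted p values of 0.0515 to 0.0899 without HDM 2, PBS 3 or PBS 4. Igha and Iglc1 had adjusted p values of 0.0529 to 0.13 without any single library other than PBS 1 or PBS 2.

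Of the B cell genes, 7 of 18 tested members were called higher (3 to 10 without single libraries, moved by HDM 2, PBS 3 and PBS 4, 0 without the Ddx3y libraries and 2 without the high-background libraries). Their median was 1.26. Cd72, an inhibitory coreceptor, had 41.1, 46.7 and 39.2 CPM in the HDM lungs, against 13.5, 14.1, 13.9 and 14.6 CPM in the PBS lungs (log2 fold change 1.76 ± 0.18 SE, adjusted p 0.00363), both groups being tight. Blnk, the adaptor downstream of the B cell receptor, had 37.5, 44.2 and 44.5 CPM in the HDM lungs, against 14.5, 15.2, 9.86 and 9.06 CPM in the PBS lungs (log2 fold change 1.97 ± 0.23 SE, adjusted p 0.00501). Cd22, a sialic acid-binding inhibitor of the same receptor, had 62.7, 67.1 and 53.4 CPM in the HDM lungs, against 26.3, 23.2, 24.4 and 17.9 CPM in the PBS lungs (log2 fold change 1.59 ± 0.19 SE, adjusted p 0.00588). Spib, an ETS-family factor of B cells and plasmacytoid dendritic cells, had a log2 fold change of 1.81 (adjusted p 0.0123). Cd72, Blnk and Cd22 stayed past the threshold without each single library. Cd72, Blnk and Cd22 had adjusted p values of 0.141 to 0.329 without the Ddx3y libraries. Blnk had an adjusted p of 0.0756 without the high-background libraries. Spib had adjusted p values of 0.0581 to 0.0651 without HDM 2 or PBS 4.

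Of the lymphoid follicle genes, 5 of 21 tested members were called higher (1 to 6 without single libraries, moved by HDM 1, HDM 2, HDM 3, PBS 1, PBS 3 and PBS 4, 0 without the Ddx3y libraries and 0 without the high-background libraries). Their median was 0.76. Among the genes called were Il21r, Il21, Ccl19 and Lta. Il21, the cytokine of follicular helper T cells, had 0.368, 0.807 and 0.614 CPM in HDM lungs and 0, 0.0353, 0 and 0 CPM in PBS lungs, reads being seen in PBS 2 alone among PBS lungs (adjusted p 0.0372). Its receptor Il21r had 20.2, 28.2 and 27.5 CPM in the HDM lungs, against 6.19, 10.4, 8.22 and 6.85 CPM in the PBS lungs (log2 fold change 1.83 ± 0.27 SE, adjusted p 0.0132). Ccl19, which guides T cells and dendritic cells to lymphoid tissue, had a log2 fold change of 1.93 (adjusted p 0.0425), and Lta, lymphotoxin alpha, one of 1.74 (adjusted p 0.0425). Il21r had adjusted p values of 0.0678 to 0.0793 without HDM 2 or PBS 4. Il21 had adjusted p values of 0.0782 to 0.215 without any single library other than PBS 1 or PBS 2. Ccl19 had adjusted p values of 0.0555 to 0.232 without any single library other than HDM 1 or PBS 2. Lta had adjusted p values of 0.0522 to 0.2 without any single library.

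Of the T cell genes, 3 of 24 tested members were called higher (0 to 7 without single libraries, moved by HDM 1, HDM 2, HDM 3, PBS 1, PBS 2, PBS 3 and PBS 4, 0 without the Ddx3y libraries and 0 without the high-background libraries), although all 24 had a positive fold change and their median was 0.91 (0.69 without the Ddx3y libraries and 0.86 without the high-background libraries). Cd4, the helper coreceptor, had 29.1, 39.5 and 27.3 CPM in the HDM lungs, against 5.65, 13.6, 8.89 and 6.79 CPM in the PBS lungs (log2 fold change 2.02 ± 0.35 SE, adjusted p 0.0255). Trac, the T cell receptor alpha constant region, had 20.7, 26.4 and 28.6 CPM in the HDM lungs, against 9.25, 15.5, 8.82 and 9.29 CPM in the PBS lungs (log2 fold change 1.39 ± 0.27 SE, adjusted p 0.0383). Cd3e, a chain of the receptor complex, changed by 1.06 on the log2 scale (adjusted p 0.0402). Of the genes of cytotoxic lymphocytes, edgeR called 0 of 22 tested members, while 4 higher and 0 lower had an unadjusted p under 0.05, DESeq2 called 3 higher and 0 lower and limma-voom 2 higher (without PBS 2, edgeR called 3 higher). Their median was 0.07, and -0.11 under upper-quartile scaling.

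Of the regulatory T cell and checkpoint genes, 8 of 22 tested members were called higher (0 to 9 without single libraries, moved by HDM 2, HDM 3, PBS 3 and PBS 4, 1 without the Ddx3y libraries and 0 without the high-background libraries). Their median was 1.47 (0.93 without the Ddx3y libraries and 1.25 without the high-background libraries). Pdcd1, which encodes the inhibitory receptor PD-1, had 10.7, 10.2 and 12.7 CPM in the HDM lungs, against 1.04, 3.2, 1.13 and 1.22 CPM in the PBS lungs (log2 fold change 2.89 ± 0.43 SE, adjusted p 0.0137). Its ligand PD-L2, encoded by Pdcd1lg2, had 1.99, 2.96 and 9.14 CPM in the HDM lungs, against 0.677, 0.904, 0.446 and 0.67 CPM in the PBS lungs (log2 fold change 2.96 ± 0.52 SE, adjusted p 0.0273), HDM 3 being highest. Tigit, an inhibitory receptor of T and natural killer cells, had 5.24, 8.88 and 7.79 CPM in the HDM lungs, against 0.325, 1.74, 0.867 and 1 CPM in the PBS lungs (log2 fold change 3.02 ± 0.5 SE, adjusted p 0.0224). The costimulatory genes Icos, Tnfrsf4 (OX40) and Cd86 had log2 fold changes of 1.55 (adjusted p 0.0204), 2.31 (adjusted p 0.0223) and 1.47 (adjusted p 0.0255). Cd4 and Icos had adjusted p values of 0.0543 to 0.132 without HDM 1, HDM 2, PBS 3 or PBS 4. Trac, Cd3e and Cd86 had adjusted p values of 0.0642 to 0.219 without any single library other than PBS 1 or PBS 2. Pdcd1 had adjusted p values of 0.0678 to 0.0683 without HDM 2 or PBS 4. Pdcd1lg2, Tigit and Tnfrsf4 had adjusted p values of 0.0554 to 0.124 without HDM 2, HDM 3, PBS 3 or PBS 4.

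**Figure D2:**
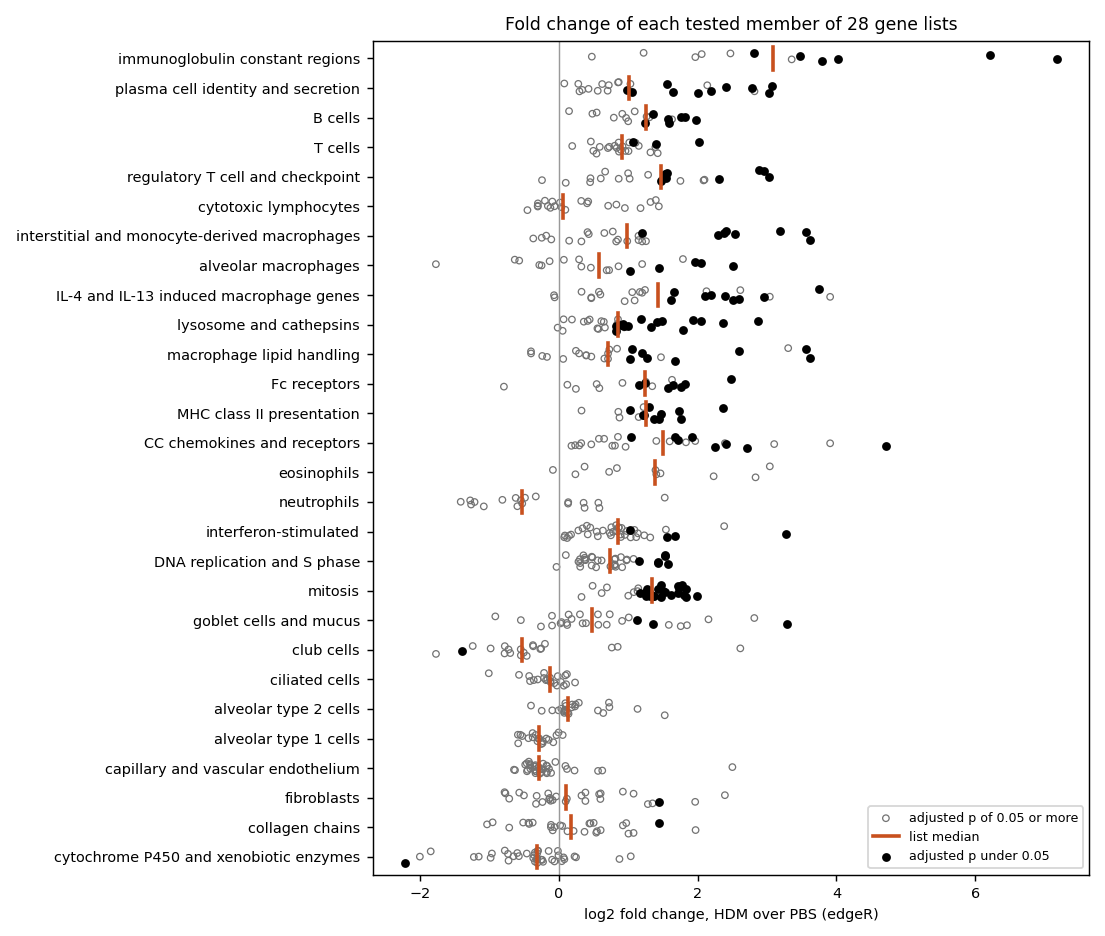
Each point is the log2 fold change (HDM over PBS, edgeR) of a tested member of 28 gene lists, filled where the adjusted p was under 0.05, and the orange bar is the list's median. Lists of lymphocyte, macrophage, antigen presentation and mitosis genes lie mostly right of 0, and those of club, alveolar type 1 and endothelial cells mostly left of 0 with hardly any filled point.

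Among genes of monocyte-derived and interstitial macrophages 8 of 25 tested members were called higher (7 to 9 without single libraries, 3 without the Ddx3y libraries and 3 without the high-background libraries). Their median was 0.99 (1.1 without the Ddx3y libraries and 0.73 without the high-background libraries). Of the called genes, 7 stayed past the threshold without each single library. Trem2, a lipid-sensing receptor of macrophages (chr17:48346401-48354147, plus strand), had 42.7, 58.3 and 71.8 CPM in HDM 1, 2 and 3, against 7.94, 3.52, 5.42 and 4.64 CPM in PBS 1, 2, 3 and 4 (log2 fold change 3.62 ± 0.28 SE, adjusted p 0.000999). Every HDM lung was more than 5 times the highest PBS lung. Gpnmb, a glycoprotein of lysosome-rich macrophages, had 251, 400 and 282 CPM in the HDM lungs, against 31.9, 14.6, 39.5 and 34.8 CPM in the PBS lungs (log2 fold change 3.56 ± 0.35 SE, adjusted p 0.0036). Ms4a7, a tetraspan protein of tissue macrophages, had 19.5, 17.1 and 13.7 CPM in the HDM lungs, against 3.08, 1.62, 2.14 and 1.57 CPM in the PBS lungs (log2 fold change 3.19 ± 0.24 SE, adjusted p 0.000999).

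The chains of C1q, the recognition molecule of the classical complement pathway, are made largely by macrophages and lie side by side on chromosome 4. C1qa had 152, 202 and 284 CPM in the HDM lungs, against 68.8, 32.9, 48.2 and 34.1 CPM in the PBS lungs (log2 fold change 2.41 ± 0.28 SE, adjusted p 0.00545). C1qb and C1qc had log2 fold changes of 2.38 (adjusted p 0.00501) and 2.54 (adjusted p 0.00403). In the complement list 6 of 30 tested members were called higher (4 to 7 without single libraries, 0 without the Ddx3y libraries and 0 without the high-background libraries). Their median was 0.55. C3ar1, the C3a receptor, had 22.3, 17.4 and 14.3 CPM in the HDM lungs, against 6.66, 2.64, 5.21 and 5.33 CPM in the PBS lungs (log2 fold change 2.05 ± 0.28 SE, adjusted p 0.0104). Itgb2, the beta 2 integrin chain that is part of the complement receptors, had 402, 356 and 334 CPM in the HDM lungs, against 164, 133, 173 and 121 CPM in the PBS lungs (log2 fold change 1.47 ± 0.18 SE, adjusted p 0.0067). Trem2, Gpnmb, Ms4a7, C1qa, C1qb, C1qc and Itgb2 stayed past the threshold without each single library. C1qa, C1qb, C1qc and Itgb2 had adjusted p values of 0.202 to 0.449 without the Ddx3y libraries. Gpnmb, C1qa, C1qb, C1qc and Itgb2 had adjusted p values of 0.0506 to 0.0756 without the high-background libraries. C3ar1 had adjusted p values of 0.0543 to 0.0563 without HDM 2 or PBS 4.

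Of the lysosome and cathepsin genes, 15 of 30 tested members were called higher (3 to 15 without single libraries, moved by HDM 1, HDM 2, HDM 3, PBS 3 and PBS 4, 0 without the Ddx3y libraries and 1 without the high-background libraries), and 29 of 30 had a positive fold change, with a median of 0.85 (0.61 without the Ddx3y libraries and 0.64 without the high-background libraries). Their summed level was 14790 to 16510 CPM in HDM lungs, against 7771 to 9490 CPM in PBS lungs. Ctss, the cathepsin that trims the invariant chain, had 743, 817 and 818 CPM in the HDM lungs, against 181, 131, 184 and 195 CPM in the PBS lungs (log2 fold change 2.37 ± 0.19 SE, adjusted p 0.00106). Ctsk, a collagen-cleaving cathepsin, had 169, 238 and 247 CPM in the HDM lungs, against 21.1, 26.3, 40.2 and 45.7 CPM in the PBS lungs (log2 fold change 2.87 ± 0.33 SE, adjusted p 0.00501). Acp5, tartrate-resistant acid phosphatase, had 99.2, 106 and 111 CPM in the HDM lungs, against 35.3, 26.6, 35.4 and 28 CPM in the PBS lungs (log2 fold change 1.93 ± 0.17 SE, adjusted p 0.00216). Ctsd and Psap, which encode cathepsin D and the saposin precursor, had log2 fold changes of 1.41 (adjusted p 0.013) and 1.32 (adjusted p 0.00781). Cd68, a lysosomal glycoprotein of macrophages, had 131, 143 and 131 CPM in the HDM lungs, against 44.7, 28.4, 60.8 and 42.8 CPM in the PBS lungs (log2 fold change 1.79 ± 0.25 SE, adjusted p 0.0121). Ctss, Ctsk and Acp5 stayed past the threshold without each single library. Ctss, Ctsk and Acp5 had adjusted p values of 0.105 to 0.298 without the Ddx3y libraries. Ctsk and Acp5 had adjusted p values of 0.0506 to 0.0516 without the high-background libraries. Ctsd and Cd68 had adjusted p values of 0.0678 to 0.0845 without HDM 2 or PBS 4. Psap had an adjusted p of 0.0515 without PBS 4.

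In the list of macrophage lipid handling, which shares Trem2 and Gpnmb with the macrophage list, 8 of 25 tested members were called higher (3 to 7 without single libraries, moved by HDM 1, HDM 2, HDM 3, PBS 3 and PBS 4, 2 without the Ddx3y libraries and 2 without the high-background libraries). Their median was 0.71. Msr1, a scavenger receptor for modified lipoproteins, had 10.9, 8.7 and 9.53 CPM in the HDM lungs, against 1.96, 1.84, 1.9 and 1.51 CPM in the PBS lungs (log2 fold change 2.59 ± 0.19 SE, adjusted p 0.000999). Apoe, the lipoprotein of cholesterol efflux, had 2010, 1956 and 1336 CPM in the HDM lungs, against 910, 975, 844 and 734 CPM in the PBS lungs (log2 fold change 1.2 ± 0.21 SE, adjusted p 0.0258). Pla2g7, which hydrolyses platelet-activating factor, had a log2 fold change of 1.68 (adjusted p 0.0123). Msr1 stayed past the threshold without each single library. Msr1 had an adjusted p of 0.064 without the Ddx3y libraries. Apoe had adjusted p values of 0.0767 to 0.14 without HDM 1, HDM 2, PBS 3 or PBS 4. Pla2g7 had adjusted p values of 0.0654 to 0.0683 without HDM 2 or PBS 4.

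Of the alveolar macrophage genes, 5 of 20 tested members were called higher (1 to 5 without single libraries, moved by HDM 1, HDM 2, HDM 3, PBS 3 and PBS 4, 0 without the Ddx3y libraries and 0 without the high-background libraries). Their median was 0.58, and 14 of 20 had a positive fold change. Log2 fold changes ran from -1.77 to 2.51, and 9 higher and 1 lower had an unadjusted p under 0.05. Itgax (CD11c) had 265, 176 and 269 CPM in the HDM lungs, against 70.3, 44.3, 98.8 and 57 CPM in the PBS lungs (log2 fold change 1.96 ± 0.28 SE, adjusted p 0.0117). Chil3, a chitinase-like protein that crystallises in allergic lungs, had 3476, 3078 and 4004 CPM in the HDM lungs, against 438, 332, 760 and 1218 CPM in the PBS lungs (log2 fold change 2.51 ± 0.41 SE, adjusted p 0.0222). Atp6v0d2, a proton pump subunit, had 98.4, 85.6 and 63.4 CPM in the HDM lungs, against 18.2, 11.4, 32.3 and 27.3 CPM in the PBS lungs (log2 fold change 2.05 ± 0.35 SE, adjusted p 0.0247). Spp1, osteopontin, changed by 1.02 (adjusted p 0.0279). Itgax had an adjusted p of 0.0678 without PBS 4. Chil3 had adjusted p values of 0.0552 to 0.0861 without HDM 1, HDM 2, HDM 3 or PBS 3. Atp6v0d2 had adjusted p values of 0.0836 to 0.12 without HDM 1, HDM 2 or PBS 4. Spp1 had adjusted p values of 0.0634 to 0.118 without any single library other than PBS 1 or PBS 2.

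Of the Fc receptor genes, through which antibodies act on leukocytes, 7 of 16 tested members were called higher (0 to 8 without single libraries, moved by HDM 1, HDM 2, HDM 3, PBS 3 and PBS 4, 0 without the Ddx3y libraries and 0 without the high-background libraries). Their median was 1.25, and their summed level was 688 to 778 CPM in HDM lungs, against 395 to 454 CPM in PBS lungs. Fcgr3, an activating IgG receptor, had 97.2, 67.2 and 84.1 CPM in the HDM lungs, against 26.8, 18.1, 37 and 26.8 CPM in the PBS lungs (log2 fold change 1.76 ± 0.24 SE, adjusted p 0.0112). Fcgr2b, the inhibitory IgG receptor, had 82.7, 52 and 66.3 CPM in the HDM lungs, against 14.7, 18.6, 25.9 and 24 CPM in the PBS lungs (log2 fold change 1.82 ± 0.26 SE, adjusted p 0.0123). Fcer1g, the signalling chain shared by activating receptors, had 71.6, 96.7 and 107 CPM in the HDM lungs, against 43.2, 45.7, 39.9 and 46.8 CPM in the PBS lungs (log2 fold change 1.24 ± 0.2 SE, adjusted p 0.0221). Fcgr4 a log2 fold change of 1.15 (adjusted p 0.0189). Of the C-type lectin and pattern receptors, 6 of 29 tested members were called higher (1 to 7 without single libraries, moved by HDM 1, HDM 2, PBS 3 and PBS 4, 1 without the Ddx3y libraries and 1 without the high-background libraries). Their median was 1.04. Clec7a, dectin-1, the receptor for beta-glucan, had 161, 121 and 143 CPM in HDM 1, 2 and 3, against 38.2, 24.7, 29.8 and 29.3 CPM in PBS 1, 2, 3 and 4 (log2 fold change 2.39 ± 0.16 SE, adjusted p 0.000828). Clec4a2, an inhibitory lectin, and Tlr1, a partner of TLR2, had log2 fold changes of 1.52 (adjusted p 0.0137) and 1.45 (adjusted p 0.0255). Clec7a stayed past the threshold without each single library. Fcgr3 had an adjusted p of 0.0654 without PBS 4. Fcgr2b and Clec4a2 had adjusted p values of 0.0537 to 0.0919 without HDM 2 or PBS 4. Fcer1g had adjusted p values of 0.0699 to 0.123 without HDM 2, HDM 3, PBS 3 or PBS 4. Fcgr4 had adjusted p values of 0.0634 to 0.111 without HDM 2, PBS 3 or PBS 4. Tlr1 had adjusted p values of 0.0674 to 0.128 without HDM 1, HDM 2, PBS 3 or PBS 4.

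Of the macrophage genes induced by IL-4 or IL-13, 9 of 26 tested members were called higher (3 to 9 without single libraries, moved by HDM 2, HDM 3, PBS 3 and PBS 4, 3 without the Ddx3y libraries and 2 without the high-background libraries). Their median was 1.43 (1.17 without the Ddx3y libraries and 0.88 without the high-background libraries). Its best known members differed between the HDM lungs. Arg1, the arginase of alternatively activated macrophages, had 11.4, 17.1 and 99.7 CPM in HDM 1, 2 and 3, against 2.27, 3.96, 3.32 and 4.33 CPM in PBS 1, 2, 3 and 4 (log2 fold change 3.75 ± 0.69 SE, adjusted p 0.0327). HDM 3 held most of that rise, and the log2 fold change without the Ddx3y libraries was 1.78. Retnla, which encodes RELM alpha, had 718, 1567 and 6998 CPM in the HDM lungs, against 131, 1111, 256 and 672 CPM in the PBS lungs (log2 fold change 2.62 ± 0.87 SE, adjusted p 0.267). HDM 1 lay below PBS 2. Ccl24, the eosinophil chemokine eotaxin-2, had 0.341, 2.26 and 32.8 CPM in the HDM lungs, against 0.435, 1.38, 0.846 and 0.681 CPM in the PBS lungs (log2 fold change 3.91 ± 1.18 SE, adjusted p 0.191), with HDM 1 below every PBS lung and HDM 3 far above. Arg1 had adjusted p values of 0.0556 to 0.125 without any single library other than HDM 1 or HDM 3.

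The STAT6-type motif, TTC and GAA with any 4 bases between them, reads the same on both strands. It was searched in RefSeq promoters of this group, in windows from 250 bases before to 50 bases after the transcript start. A window was found for 7 of the 9 genes called higher, and 3 held the motif (42.9%): Clec7a, Pdcd1lg2 and Il1rn. Among all 27025 genes with a window, 8.01% held it, and among the 266 called rises with a window, 12.4%. The windows of Clec7a and Pdcd1lg2 are shown (GRCm38.p6) because both genes were called higher, with the motif in capitals. A match describes the letters in the window and says nothing of binding.
Clec7a promoter, chr6:129472730-129473029, minus strand: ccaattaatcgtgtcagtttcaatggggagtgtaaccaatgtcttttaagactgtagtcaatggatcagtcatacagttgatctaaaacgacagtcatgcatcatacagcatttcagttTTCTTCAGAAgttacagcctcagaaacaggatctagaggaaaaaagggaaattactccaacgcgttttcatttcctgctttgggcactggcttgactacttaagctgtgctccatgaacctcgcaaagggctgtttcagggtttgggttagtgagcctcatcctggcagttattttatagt
Pdcd1lg2 promoter, chr19:29410669-29410968, plus strand: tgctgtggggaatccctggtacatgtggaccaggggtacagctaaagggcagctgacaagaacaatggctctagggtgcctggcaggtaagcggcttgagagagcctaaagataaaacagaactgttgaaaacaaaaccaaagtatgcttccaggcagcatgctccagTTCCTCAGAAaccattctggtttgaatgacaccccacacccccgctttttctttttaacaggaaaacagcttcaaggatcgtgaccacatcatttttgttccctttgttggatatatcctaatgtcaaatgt

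**Figure D3:**
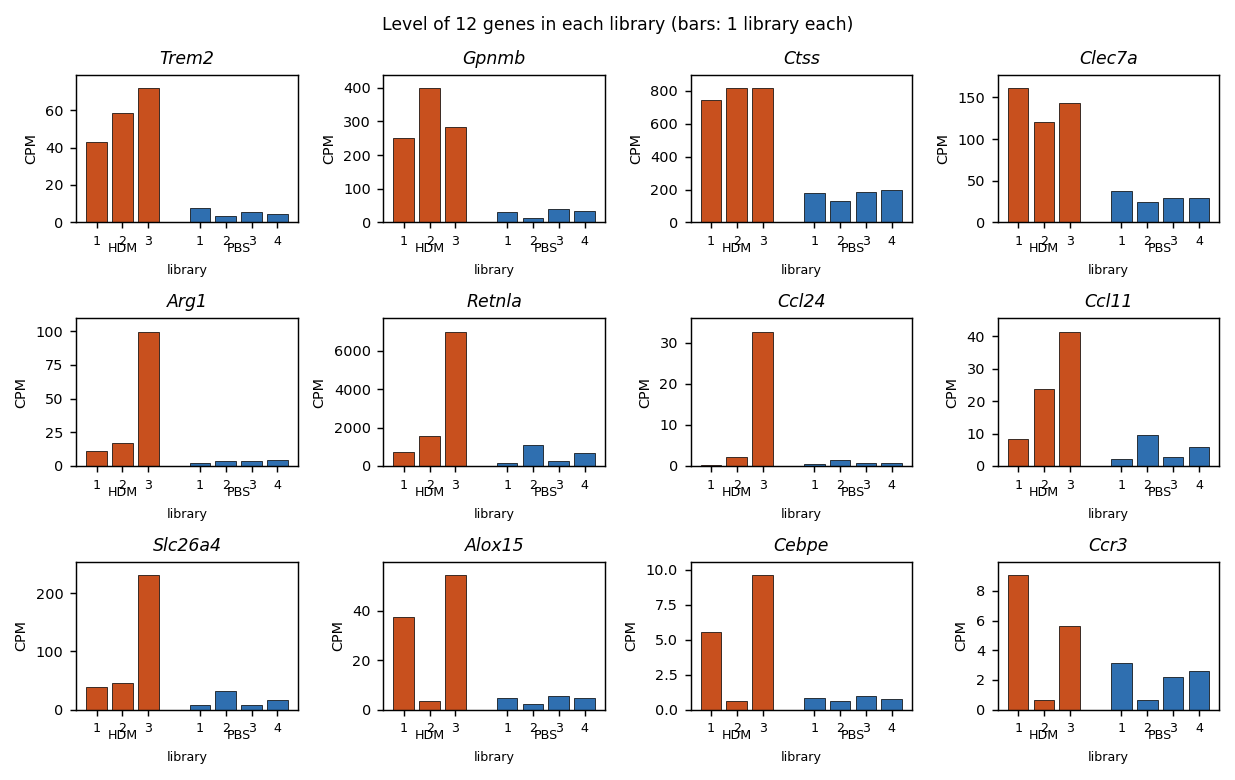
Levels in CPM of 12 genes in HDM 1 to 3 (orange, left) and PBS 1 to 4 (blue, right), each bar being 1 library and each axis starting at 0. The genes in the upper row are high in all HDM lungs, the next 5 genes (Arg1, Retnla, Ccl24, Ccl11 and Slc26a4) are highest in HDM 3, and Alox15, Cebpe and Ccr3 are high in HDM 1 and HDM 3 and at PBS levels in HDM 2.

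Of the eosinophil genes, edgeR called 0 of 11 tested members, while 5 higher and 0 lower had an unadjusted p under 0.05, DESeq2 called 3 higher and 0 lower and limma-voom 0 (without HDM 2, edgeR called 2 higher). Their median was 1.39, and HDM 2 stood apart from the other HDM lungs. Alox15, the lipoxygenase of eosinophils and resident macrophages, had 37.4, 3.46 and 54.5 CPM in HDM 1, 2 and 3, against 4.74, 2.26, 5.28 and 4.6 CPM in PBS 1, 2, 3 and 4 (log2 fold change 3.04 ± 0.69 SE, adjusted p 0.0674). Cebpe, a transcription factor of granulocyte maturation, had 5.52, 0.582 and 9.63 CPM in the HDM lungs, against 0.827, 0.635, 1 and 0.722 CPM in the PBS lungs (log2 fold change 2.83 ± 0.69 SE, adjusted p 0.0883). Ccr3, the eotaxin receptor, had 9.07, 0.651 and 5.65 CPM in the HDM lungs, against 3.14, 0.672, 2.18 and 2.58 CPM in the PBS lungs (log2 fold change 1.41 ± 0.7 SE, adjusted p 0.655). In each case HDM 2 was within or below the range of PBS lungs and HDM 1 and 3 were above it. Epx, eosinophil peroxidase, was too low to test, with 0.161, 0.0735 and 0.0808 CPM in the HDM lungs, against 0.156, 0.0331, 0.102 and 0.128 CPM in the PBS lungs. Summed over the list, the levels were 146, 51.3 and 152 CPM in HDM 1, 2 and 3, against 49.8 to 86.2 CPM in PBS lungs.

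Of the neutrophil genes, edgeR called 0 of 19 tested members, while 1 higher and 4 lower had an unadjusted p under 0.05, DESeq2 called 1 higher and 2 lower and limma-voom 0. Their median was -0.53 (-0.22 without the Ddx3y libraries and -0.78 without the high-background libraries). S100a8, a calcium-binding protein abundant in neutrophils, had 24.6, 17.8 and 25.3 CPM in the HDM lungs, against 114, 80.3, 37.2 and 42.9 CPM in the PBS lungs (log2 fold change -1.41 ± 0.35 SE, adjusted p 0.0936), and its partner S100a9 had 36.9, 26.5 and 42.6 CPM in the HDM lungs, against 165, 127, 44.6 and 51 CPM in the PBS lungs (log2 fold change -1.26 ± 0.42 SE, adjusted p 0.269). In CPM the HDM lungs were below every PBS lung for both genes, for S100a9 narrowly (42.6 CPM in HDM 3 against 44.6 CPM in PBS 3). Neither difference passed the test. Other members went the other way: 7 of 19 had a positive fold change, and log2 fold changes ran from -1.41 to 1.53. The list's summed level was 675 to 1196 CPM in HDM lungs, against 505 to 731 CPM in PBS lungs. Of the mast cell and basophil genes, 2 of 14 tested members were called higher (0 to 2 without single libraries, moved by PBS 4, 0 without the Ddx3y libraries and 0 without the high-background libraries), namely Mcpt1 and Mcpt2. Their median was 0.01 (-0.55 without the Ddx3y libraries and 0.01 without the high-background libraries), and limma-voom called 0 of the 14. Tpsb2, a tryptase of connective tissue mast cells, had 1.11, 0.82 and 3.24 CPM in the HDM lungs, against 0.569, 0.0658, 0.744 and 0.481 CPM in the PBS lungs (log2 fold change 2.04 ± 0.72 SE, adjusted p 0.317). Gata2, a factor of mast cells that endothelium also uses, had 118, 87 and 105 CPM in the HDM lungs, against 184, 142, 194 and 170 CPM in the PBS lungs (log2 fold change -0.58 ± 0.17 SE, adjusted p 0.186). Mcpt1 and Mcpt2 had adjusted p values of 0.0506 to 0.0515 without PBS 4.

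Of the type 2 lymphocyte and cytokine genes, edgeR called 0 of 23 tested members, while 6 higher and 0 lower had an unadjusted p under 0.05, DESeq2 called 2 higher and 0 lower and limma-voom 0 (without PBS 1, edgeR called 1 higher). Their median was 0.38. The cytokines Il4, Il5 and Il13 lay below 2 CPM in every lung. Il4 had 0.8, 0.457 and 0.703 CPM in the HDM lungs, against 0.403, 0.776, 0.494 and 0.709 CPM in the PBS lungs (log2 fold change 0.28 ± 0.49 SE, adjusted p 1), the groups overlapping. Il13 had 0.189, 0.403 and 1.98 CPM in the HDM lungs, against 0.567, 0.145, 0.137 and 0.803 CPM in the PBS lungs (log2 fold change 1.25 ± 0.9 SE, adjusted p 0.96), HDM 3 alone standing above the PBS lungs. Il5 was too low to test, with 0.121, 0.0941 and 0.505 CPM in the HDM lungs, against 0.0783, 0.159, 0.127 and 0.229 CPM in the PBS lungs. Il33, the alarmin of alveolar and airway epithelium, had 175, 110 and 196 CPM in the HDM lungs, against 42.4, 85.4, 100 and 89.5 CPM in the PBS lungs (log2 fold change 1.13 ± 0.33 SE, adjusted p 0.177). Ccr8, the receptor of CCL8 on type 2 helper cells, had 2.79, 3.51 and 2.93 CPM in the HDM lungs, against 0.205, 1.87, 0.859 and 0.811 CPM in the PBS lungs (log2 fold change 1.83 ± 0.6 SE, adjusted p 0.255). For both, every HDM lung was above every PBS lung without passing the test.

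Of the goblet cell and mucus genes, 3 of 28 tested members were called higher (0 to 3 without single libraries, moved by HDM 1, HDM 2, HDM 3 and PBS 4, 0 without the Ddx3y libraries and 0 without the high-background libraries). Their median was 0.48 (0.12 without the Ddx3y libraries and 0.48 without the high-background libraries). Itln1, intelectin 1, a lectin secreted by goblet cells, had 9.54, 3.72 and 6.02 CPM in the HDM lungs, against 0.726, 1.13, 0.169 and 0.881 CPM in the PBS lungs (log2 fold change 3.28 ± 0.54 SE, adjusted p 0.0222). Tff2, a trefoil peptide that binds mucus, had 43.3, 22.6 and 40.3 CPM in the HDM lungs, against 16.6, 17, 9.01 and 18.6 CPM in the PBS lungs (log2 fold change 1.36 ± 0.28 SE, adjusted p 0.0434). Galnt6, which starts O-glycan chains, had 33.1, 32.1 and 30.2 CPM in the HDM lungs, against 20, 12.5, 19.5 and 14.1 CPM in the PBS lungs (log2 fold change 1.12 ± 0.19 SE, adjusted p 0.0245). The gel-forming mucin Muc5ac had 52, 31.8 and 64.8 CPM in the HDM lungs, against 2.58, 21.8, 10.9 and 12.2 CPM in the PBS lungs (log2 fold change 2.16 ± 0.58 SE, adjusted p 0.132). Clca1, a secreted protease of goblet cells, had 1005, 1217 and 1178 CPM in the HDM lungs, against 52.1, 855, 220 and 512 CPM in the PBS lungs (log2 fold change 1.58 ± 0.72 SE, adjusted p 0.566), with PBS 2 at most of the HDM level. Slc26a4, the anion exchanger pendrin, had 38.4, 45.1 and 231 CPM in the HDM lungs, against 8.24, 31, 8.28 and 16.8 CPM in the PBS lungs (log2 fold change 2.82 ± 0.71 SE, adjusted p 0.105). HDM lungs were above PBS lungs without overlap for these last 3 genes, and the spread among PBS lungs was wide. Itln1 had adjusted p values of 0.0649 to 0.0919 without HDM 1, HDM 2 or PBS 4. Tff2 had adjusted p values of 0.0573 to 0.149 without any single library. Galnt6 had adjusted p values of 0.0535 to 0.135 without HDM 1, HDM 2, HDM 3 or PBS 4.

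Of the genes of MHC class II presentation, 10 of 16 tested members were called higher (1 to 11 without single libraries, moved by HDM 1, HDM 2, HDM 3, PBS 3 and PBS 4, 0 without the Ddx3y libraries and 1 without the high-background libraries), and all 16 had a positive fold change, with a median of 1.26 (1.06 without the Ddx3y libraries and 1.01 without the high-background libraries). Their summed level was 8475 to 11950 CPM in HDM lungs, against 3368 to 5688 CPM in PBS lungs. Cd74, the invariant chain, had 3431, 3875 and 5101 CPM in the HDM lungs, against 2235, 2311, 1396 and 1685 CPM in the PBS lungs (log2 fold change 1.29 ± 0.22 SE, adjusted p 0.0248). Ciita, the master regulator of class II transcription, had 66.2, 56.6 and 54.6 CPM in the HDM lungs, against 39.6, 34.5, 32 and 25.4 CPM in the PBS lungs (log2 fold change 1.02 ± 0.18 SE, adjusted p 0.0255). Ifi30, a thiol reductase that prepares antigens in lysosomes, had 168, 193 and 309 CPM in the HDM lungs, against 96.2, 84.9, 105 and 100 CPM in the PBS lungs (log2 fold change 1.37 ± 0.23 SE, adjusted p 0.0229). Cd83, a marker of mature dendritic cells and activated B cells, had 39.1, 39.4 and 41 CPM in the HDM lungs, against 13.4, 20.4, 10.5 and 9.51 CPM in the PBS lungs (log2 fold change 1.73 ± 0.28 SE, adjusted p 0.0202). Of the dendritic cell genes, 4 of 20 tested members were called higher (0 to 5 without single libraries, moved by HDM 1, HDM 2, HDM 3, PBS 3 and PBS 4, 0 without the Ddx3y libraries and 0 without the high-background libraries). Their median was 0.52. Flt3, the receptor of the growth factor that dendritic cells need, Xcr1, the chemokine receptor of cross-presenting dendritic cells, and Sirpa, a marker of the other conventional subset and of macrophages, had log2 fold changes of 1.37 (adjusted p 0.0303), 1.77 (adjusted p 0.0404) and 1.04 (adjusted p 0.0255). Cd74 and Ifi30 had adjusted p values of 0.0543 to 0.127 without HDM 2, HDM 3, PBS 3 or PBS 4. Ciita, Cd83, Flt3 and Xcr1 had adjusted p values of 0.0528 to 0.184 without any single library other than PBS 1 or PBS 2. Sirpa had adjusted p values of 0.0535 to 0.139 without HDM 1, HDM 2, PBS 2 or PBS 4.

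Of the CC chemokines and receptors, 8 of 26 tested members were called higher (4 to 8 without single libraries, moved by HDM 2, HDM 3, PBS 3 and PBS 4, 1 without the Ddx3y libraries and 2 without the high-background libraries), and all 26 had a positive fold change, with a median of 1.5 (1.18 without the Ddx3y libraries and 0.81 without the high-background libraries). Ccl6 and Ccl9, myeloid chemokines encoded side by side on chromosome 11 and found in rodents, rose in every HDM lung. Ccl6 had 772, 723 and 933 CPM in the HDM lungs, against 177, 130, 181 and 199 CPM in the PBS lungs (log2 fold change 2.4 ± 0.19 SE, adjusted p 0.00106). Ccl9 had 84.9, 87.3 and 163 CPM in the HDM lungs, against 14.5, 21.1, 20.4 and 19.6 CPM in the PBS lungs (log2 fold change 2.71 ± 0.29 SE, adjusted p 0.0044). Ccr6, a receptor of B cells and IL-17-producing T cells, had 6.17, 7.44 and 5 CPM in the HDM lungs, against 1.44, 1.68, 0.76 and 2.01 CPM in the PBS lungs (log2 fold change 2.26 ± 0.34 SE, adjusted p 0.0154). Ccl11, eotaxin-1, had 8.29, 23.7 and 41.4 CPM in the HDM lungs, against 2.04, 9.66, 2.88 and 5.87 CPM in the PBS lungs (log2 fold change 2.39 ± 0.64 SE, adjusted p 0.128), HDM 1 lying below PBS 2. Of the CXC family, 3 of 23 tested members were called higher (0 to 7 without single libraries, moved by HDM 2, PBS 2, PBS 3 and PBS 4, 0 without the Ddx3y libraries and 0 without the high-background libraries). Their median was 0.67. Cxcl9, an interferon gamma-induced ligand, had 7.15, 24.6 and 31.3 CPM in the HDM lungs, against 4.49, 3.03, 0.786 and 1.93 CPM in the PBS lungs (log2 fold change 3.27 ± 0.6 SE, adjusted p 0.0311), and its receptor Cxcr3 had 16.6, 29 and 17.6 CPM in the HDM lungs, against 6.72, 9.76, 5.2 and 5.98 CPM in the PBS lungs (log2 fold change 1.79 ± 0.31 SE, adjusted p 0.0262). Cxcl10, another ligand of that receptor, had a log2 fold change of 2.38 (adjusted p 0.0624). Ccl6 and Ccl9 stayed past the threshold without each single library. Ccl6 and Ccl9 had adjusted p values of 0.0993 to 0.118 without the Ddx3y libraries. Ccr6 had an adjusted p of 0.0899 without HDM 2. Cxcl9 had adjusted p values of 0.0543 to 0.142 without HDM 2, HDM 3, PBS 3 or PBS 4. Cxcr3 had adjusted p values of 0.0782 to 0.124 without HDM 2, PBS 3 or PBS 4.

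Of the interferon-stimulated genes, 4 of 38 tested members were called higher (0 to 7 without single libraries, moved by HDM 1, HDM 2, HDM 3, PBS 3 and PBS 4, 0 without the Ddx3y libraries and 0 without the high-background libraries), while all 38 had a positive fold change and the median was 0.85 (0.5 without the Ddx3y libraries and 0.62 without the high-background libraries). Zbp1, a sensor of Z-form nucleic acids, had 15.8, 29.4 and 31.5 CPM in the HDM lungs, against 9.47, 11.3, 7.19 and 8.54 CPM in the PBS lungs (log2 fold change 1.67 ± 0.28 SE, adjusted p 0.0247), HDM 1 being lowest of the HDM lungs. Oas1a, an oligoadenylate synthetase, had 17.1, 31.3 and 32.1 CPM in the HDM lungs, against 15.9, 8.83, 7.74 and 9.99 CPM in the PBS lungs (log2 fold change 1.55 ± 0.28 SE, adjusted p 0.0311), with HDM 1 close to PBS 1. Oas2, of the same enzyme family, changed by 1.02 on the log2 scale (adjusted p 0.0369). Zbp1 had adjusted p values of 0.0748 to 0.129 without HDM 2, HDM 3, PBS 3 or PBS 4. Oas1a had adjusted p values of 0.0611 to 0.149 without any single library other than HDM 1 or PBS 1. Oas2 had adjusted p values of 0.0554 to 0.195 without any single library other than PBS 1.

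**Figure D4:**
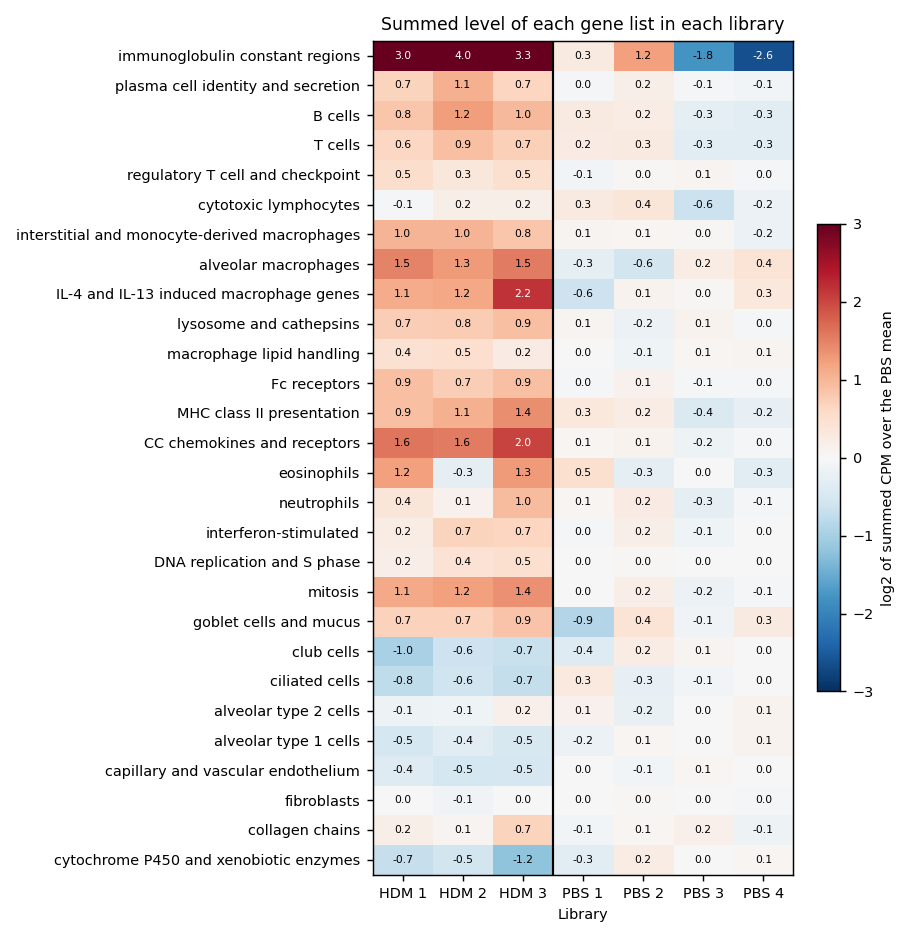
Summed CPM of 28 gene lists in each library as log2 of the ratio to the PBS mean, with HDM 1 to 3 left of the line and PBS 1 to 4 right of it. HDM 2 is the only HDM library below the PBS mean for eosinophil genes, HDM 3 is highest for the macrophage genes induced by IL-4 or IL-13, and PBS 2 is the highest PBS library for immunoglobulin constant regions.

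Of the mitosis genes, 23 of 34 tested members were called higher (1 to 21 without single libraries, moved by HDM 1, HDM 2, HDM 3, PBS 3 and PBS 4, 0 without the Ddx3y libraries and 0 without the high-background libraries), and all 34 had a positive fold change, with a median of 1.33 (1.15 without the Ddx3y libraries and 1.17 without the high-background libraries). Their summed level was 302 to 351 CPM in HDM lungs, against 121 to 157 CPM in PBS lungs. Cdca8, borealin, a subunit of the chromosomal passenger complex, had 6.64, 7.85 and 9.47 CPM in the HDM lungs, against 2.55, 2.41, 2.78 and 2.81 CPM in the PBS lungs (log2 fold change 1.77 ± 0.22 SE, adjusted p 0.00651). Plk1, the polo-like kinase of mitotic entry, had 6.79, 8.14 and 10.9 CPM in the HDM lungs, against 4.05, 3.66, 2.54 and 3.22 CPM in the PBS lungs (log2 fold change 1.53 ± 0.23 SE, adjusted p 0.0158). Ncapg, a condensin subunit, had 3.31, 3.94 and 3.18 CPM in the HDM lungs, against 1.49, 1.09, 1.02 and 1.23 CPM in the PBS lungs (log2 fold change 1.71 ± 0.26 SE, adjusted p 0.0147). Ccnb1 (cyclin B1), Kif20a, a kinesin of cytokinesis, and Cenpe, a kinetochore motor, had log2 fold changes of 1.47 (adjusted p 0.0104), 1.47 (adjusted p 0.00864) and 1.83 (adjusted p 0.013). Of the genes of DNA replication and S phase, 6 of 33 tested members were called higher (0 to 6 without single libraries, moved by HDM 2, HDM 3, PBS 2, PBS 3 and PBS 4, 0 without the Ddx3y libraries and 0 without the high-background libraries). Their median was 0.74 (0.32 without the Ddx3y libraries and 0.42 without the high-background libraries). Uhrf1, which keeps DNA methylation through replication, had 11.7, 17.6 and 20.3 CPM in the HDM lungs, against 7.45, 7.78, 5.6 and 6.99 CPM in the PBS lungs (log2 fold change 1.43 ± 0.24 SE, adjusted p 0.0224). Rrm2, the regulated subunit of ribonucleotide reductase, had 9.66, 14.3 and 15.4 CPM in the HDM lungs, against 3.63, 5.46, 4.82 and 5.77 CPM in the PBS lungs (log2 fold change 1.57 ± 0.28 SE, adjusted p 0.026). Cdca8 stayed past the threshold without each single library. Cdca8 had an adjusted p of 0.802 without the Ddx3y libraries. Cdca8 had an adjusted p of 0.116 without the high-background libraries. Plk1 and Ncapg had adjusted p values of 0.0543 to 0.106 without HDM 2, PBS 3 or PBS 4. Ccnb1 and Cenpe had adjusted p values of 0.0556 to 0.0837 without HDM 2 or PBS 4. Kif20a had an adjusted p of 0.0572 without PBS 4. Uhrf1 and Rrm2 had adjusted p values of 0.0697 to 0.14 without HDM 2, HDM 3, PBS 3 or PBS 4.

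Genes of mitosis share promoter elements known as the CCAAT box, which NF-Y binds, and the cell cycle genes homology region, TTTGAA, which the DREAM and B-MYB complexes use. Both were searched on both strands of the RefSeq windows. A window was found for 18 of the 23 mitosis genes called higher. Of those 18, 16 held CCAAT (88.9%) and 14 held TTTGAA (77.8%), against 41.1% and 20.2% of all 27025 genes with a window. The 11 mitosis genes that were not called held CCAAT in 6 (54.5%) and TTTGAA in 8 (72.7%). The TTTGAA match began within 50 bases of the transcript start in 13 of the 18 called genes (72.2%) and in 4.92% of all genes. The windows of Cdca8, Plk1 and Ncapg are shown (GRCm38.p6) to let the spacing of the elements be seen, with matches on either strand in capitals, so that ATTGG is a CCAAT box on the other strand. In the Cdca8 window a TTTGAA match and an ATTGG match overlap.
Cdca8 promoter, chr4:124936868-124937167, minus strand: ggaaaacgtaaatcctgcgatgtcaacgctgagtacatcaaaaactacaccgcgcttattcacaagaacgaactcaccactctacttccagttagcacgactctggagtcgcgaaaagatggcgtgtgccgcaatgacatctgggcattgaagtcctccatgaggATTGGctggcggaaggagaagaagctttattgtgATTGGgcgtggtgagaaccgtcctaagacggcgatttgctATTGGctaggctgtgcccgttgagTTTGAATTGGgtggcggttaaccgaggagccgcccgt
Plk1 promoter, chr7:122159185-122159484, plus strand: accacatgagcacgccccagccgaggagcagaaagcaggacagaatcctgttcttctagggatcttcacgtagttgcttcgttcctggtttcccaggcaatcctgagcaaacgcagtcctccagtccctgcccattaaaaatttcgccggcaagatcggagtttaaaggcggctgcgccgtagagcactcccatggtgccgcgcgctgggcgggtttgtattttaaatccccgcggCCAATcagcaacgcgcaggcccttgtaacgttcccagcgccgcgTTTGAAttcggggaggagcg
Ncapg promoter, chr5:45669675-45669974, plus strand: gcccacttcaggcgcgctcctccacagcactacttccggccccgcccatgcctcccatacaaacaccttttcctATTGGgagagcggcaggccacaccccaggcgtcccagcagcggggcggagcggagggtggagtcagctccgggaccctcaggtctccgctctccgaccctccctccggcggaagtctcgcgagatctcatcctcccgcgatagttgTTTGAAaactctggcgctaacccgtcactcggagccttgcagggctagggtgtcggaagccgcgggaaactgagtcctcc

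**Figure D5:**
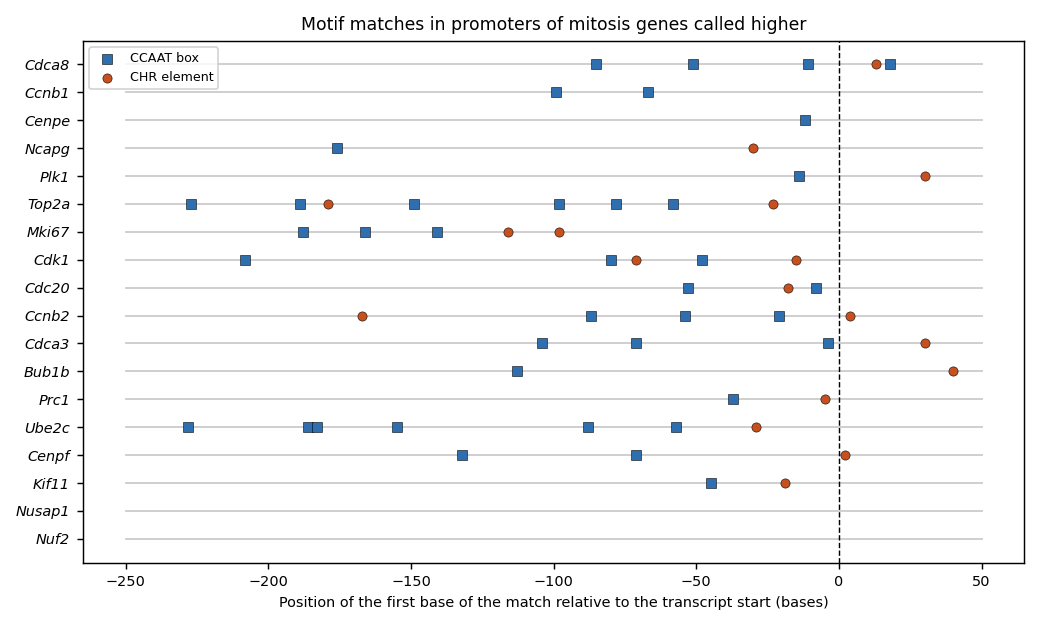
Position of each CCAAT match (blue squares) and each match to the cell cycle homology region (orange circles) in the 300-base windows of the 18 mitosis genes called higher that have a RefSeq window, in bases from the transcript start (dashed line). The orange circles lie mostly near the start and the blue squares mostly upstream of it, and 2 genes, Nusap1 and Nuf2, hold neither match.

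Few genes of lung structural cells passed the test. Of the club cell genes, 1 of 20 tested members was called lower (0 to 1 without single libraries, moved by HDM 1, HDM 2, HDM 3 and PBS 4, 0 without the Ddx3y libraries and 0 without the high-background libraries). Their median was -0.53 (-0.63 without the Ddx3y libraries and -0.6 without the high-background libraries). The called gene was Scgb3a2, a secretoglobin of airway club cells, with 356, 368 and 322 CPM in the HDM lungs, against 1272, 1328, 709 and 850 CPM in the PBS lungs (log2 fold change -1.4 ± 0.24 SE, adjusted p 0.0264). Scgb1a1, the main club cell secretoglobin, had 14480, 18960 and 14820 CPM in the HDM lungs, against 21030, 38500, 33520 and 30250 CPM in the PBS lungs (log2 fold change -0.78 ± 0.28 SE, adjusted p 0.31). Cyp2f2, the club cell cytochrome, had 1494, 2270 and 1279 CPM in the HDM lungs, against 3007, 4619, 3543 and 3819 CPM in the PBS lungs (log2 fold change -0.98 ± 0.29 SE, adjusted p 0.18). Bpifa1, an antimicrobial protein of upper airway secretions, had 79.1, 25 and 29.2 CPM in the HDM lungs, against 81.2, 80, 239 and 254 CPM in the PBS lungs (log2 fold change -1.77 ± 0.57 SE, adjusted p 0.242). In CPM, which carry no TMM scaling, every HDM lung was below every PBS lung for all 4 genes. The gap was narrow for Bpifa1, with 79.1 CPM in HDM 1 against 80 CPM in PBS 2. Of the ciliated cell genes, edgeR called 0 of 22 tested members, while 0 higher and 3 lower had an unadjusted p under 0.05, DESeq2 called 0 higher and 1 lower and limma-voom 0. Their median was -0.12. Tppp3, a tubulin-binding protein of cilia, had 300, 364 and 318 CPM in the HDM lungs, against 1135, 530, 660 and 713 CPM in the PBS lungs (log2 fold change -1.01 ± 0.23 SE, adjusted p 0.068). Foxj1, the ciliated cell transcription factor, had 111, 128 and 120 CPM in the HDM lungs, against 241, 143, 156 and 139 CPM in the PBS lungs (log2 fold change -0.3 ± 0.2 SE, adjusted p 0.886).

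Of the alveolar type 1 genes, edgeR called 0 of 20 tested members, while 0 higher and 1 lower had an unadjusted p under 0.05, DESeq2 called 0 higher and 1 lower and limma-voom 0, and 1 of 20 had a positive fold change, with a median of -0.29. Hopx, a homeodomain protein of these cells, had 432, 510 and 504 CPM in the HDM lungs, against 674, 935, 823 and 811 CPM in the PBS lungs (log2 fold change -0.59 ± 0.21 SE, adjusted p 0.332). Of the alveolar type 2 genes, edgeR called 0 of 24 tested members, while 6 higher and 0 lower had an unadjusted p under 0.05, DESeq2 called 2 higher and 0 lower and limma-voom 0. Their median was 0.13, and -0.02 under upper-quartile scaling. Sftpc, surfactant protein C, had 24100, 28050 and 39410 CPM in the HDM lungs, against 38240, 26690, 28190 and 35870 CPM in the PBS lungs (log2 fold change 0.1 ± 0.2 SE, adjusted p 1). Sftpd, the surfactant collectin, had 1503, 1552 and 2492 CPM in the HDM lungs, against 1449, 1237, 1236 and 1411 CPM in the PBS lungs (log2 fold change 0.64 ± 0.2 SE, adjusted p 0.218). Of the basal cell and squamous genes, 1 of 14 tested members was called higher (0 to 1 without single libraries, moved by HDM 1, HDM 2, HDM 3, PBS 2, PBS 3 and PBS 4, 0 without the Ddx3y libraries and 0 without the high-background libraries). Krt5, the basal cell keratin, was the gene called, with 1.18, 1.2 and 1.48 CPM in the HDM lungs, against 0.209, 0.176, 0.283 and 0.323 CPM in the PBS lungs (log2 fold change 2.52 ± 0.45 SE, adjusted p 0.0297), below 2 CPM in every lung. The list as a whole did not follow Krt5: its median was -0.23 (-1.28 without the Ddx3y libraries), and 5 of 14 members had a positive fold change. Log2 fold changes ran from -2.83 to 2.52, and 3 higher and 3 lower had an unadjusted p under 0.05. Of the capillary and vascular endothelial genes, edgeR called 0 of 37 tested members, while 2 higher and 5 lower had an unadjusted p under 0.05, DESeq2 called 1 higher and 3 lower and limma-voom 0, and 6 of 37 had a positive fold change, with a median of -0.29. Eng, endoglin, had 509, 481 and 498 CPM in the HDM lungs, against 1068, 777, 830 and 839 CPM in the PBS lungs (log2 fold change -0.65 ± 0.15 SE, adjusted p 0.0699). Ackr1, the chemokine-binding receptor of venules, had 2.09, 3.37 and 4.52 CPM in the HDM lungs, against 1.13, 1.15, 0.167 and 0.26 CPM in the PBS lungs (log2 fold change 2.5 ± 0.64 SE, adjusted p 0.111). Scgb3a2 had adjusted p values of 0.0577 to 0.114 without HDM 1, HDM 2, HDM 3 or PBS 4. Krt5 had adjusted p values of 0.0573 to 0.144 without any single library other than PBS 1.

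Cst8 and Asgr1 had the largest of the called falls named by the selection rule. Of all 19 called falls, these alone stayed past the threshold without each single library. Their adjusted p values were 0.0836 and 0.111 without the Ddx3y libraries, and 0.0719 and 0.0818 without the high-background libraries. Cst8, a cystatin-family gene, had 0.911, 1.11 and 0.917 CPM in HDM 1, 2 and 3, against 8.56, 5.92, 13.1 and 10.6 CPM in PBS 1, 2, 3 and 4 (log2 fold change -3.11 ± 0.34 SE, adjusted p 0.0044), a level 8.66-fold lower in HDM lungs. Asgr1, a subunit of the asialoglycoprotein receptor, had 0.694, 1.06 and 0.546 CPM in the HDM lungs, against 6.74, 7.52, 4.35 and 5.93 CPM in the PBS lungs (log2 fold change -2.8 ± 0.35 SE, adjusted p 0.00675). Gdpd2, a glycerophosphodiester phosphodiesterase family gene, had 3.23, 2.84 and 1.49 CPM in the HDM lungs, against 10.7, 15.7, 18.2 and 17.8 CPM in the PBS lungs (log2 fold change -2.48 ± 0.35 SE, adjusted p 0.0123). Bex2, a small X-linked gene of neurons, had 6.29, 8.39 and 4.76 CPM in the HDM lungs, against 25.2, 36.9, 33.4 and 30.9 CPM in the PBS lungs (log2 fold change -2.12 ± 0.29 SE, adjusted p 0.0112). The highest HDM lung was below the lowest PBS lung for each of these genes, which the selection rule required. Spon2, a secreted matrix protein, and Pon1, paraoxonase 1, had log2 fold changes of -1.81 (adjusted p 0.0114) and -2.21 (adjusted p 0.0223).

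Other falls named by the rule were Upk1a, a uroplakin of urothelium, Iyd, an iodotyrosine deiodinase, and Faim2, an inhibitor of Fas signalling. Olfm2, an olfactomedin, Igfbp6, a binder of insulin-like growth factor 2, and Pllp, a myelin-type membrane protein, were named too. Log2 fold changes of these genes lay between -1.8 for Upk1a and -1.02 for Pllp. Igfbp6 had 144, 196 and 180 CPM in the HDM lungs, against 650, 291, 427 and 450 CPM in the PBS lungs (log2 fold change -1.19 ± 0.25 SE, adjusted p 0.0495). Gdpd2 and Spon2 had adjusted p values of 0.066 to 0.0776 without HDM 2. Bex2 had an adjusted p of 0.0539 without HDM 1. Pon1 had adjusted p values of 0.0617 to 0.0935 without HDM 1, HDM 2, HDM 3 or PBS 4. Upk1a had adjusted p values of 0.0522 to 0.159 without any single library. Iyd, Faim2, Olfm2 and Pllp had adjusted p values of 0.052 to 0.177 without any single library other than PBS 1 or PBS 2. Igfbp6 had adjusted p values of 0.0538 to 0.167 without any single library other than PBS 2.

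Of the Wnt signalling genes, 2 of 36 tested members were called lower (0 to 2 without single libraries, moved by HDM 1, HDM 2, HDM 3, PBS 2, PBS 3 and PBS 4, 0 without the Ddx3y libraries and 0 without the high-background libraries). Their median was -0.12. The genes called lower were the ligands Wnt2, made by alveolar fibroblasts and needed for lung formation, and Wnt7a. Wnt2 had 8.54, 10.8 and 7.11 CPM in the HDM lungs, against 25.8, 18.7, 22.2 and 20 CPM in the PBS lungs (log2 fold change -1.1 ± 0.21 SE, adjusted p 0.0372). Wnt7a had 7.83, 9.55 and 8.88 CPM in the HDM lungs, against 23, 20.1, 15.8 and 20.9 CPM in the PBS lungs (log2 fold change -1.0 ± 0.19 SE, adjusted p 0.0337). Of the cytochrome P450 and xenobiotic genes, 1 of 39 tested members was called lower (0 to 1 without single libraries, moved by HDM 2, HDM 3 and PBS 4, 0 without the Ddx3y libraries and 0 without the high-background libraries). Their median was -0.31, and the gene called lower was Pon1. Cyp4b1, an abundant lung cytochrome, had 454, 462 and 302 CPM in the HDM lungs, against 1008, 662, 1007 and 916 CPM in the PBS lungs (log2 fold change -0.96 ± 0.23 SE, adjusted p 0.0816). Wnt2 and Wnt7a had adjusted p values of 0.0535 to 0.143 without any single library other than PBS 1.

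Of the matrix proteases and inhibitors, 4 of 29 tested members were called higher (1 to 4 without single libraries, moved by HDM 1, HDM 2, HDM 3, PBS 3 and PBS 4, 0 without the Ddx3y libraries and 1 without the high-background libraries). Their median was 0.38. Beside Mmp12 they were Mmp13, a collagenase, with 4.68, 2.38 and 6.38 CPM in the HDM lungs, against 0.113, 0.212, 0.415 and 0.855 CPM in the PBS lungs (log2 fold change 3.58 ± 0.64 SE, adjusted p 0.0281), Mmp19 (log2 fold change 1.56, adjusted p 0.0401) and Adam8, a leukocyte sheddase (log2 fold change 1.34, adjusted p 0.036). Of the fibroblast genes, 1 of 29 tested members was called higher (0 to 1 without single libraries, moved by HDM 1, HDM 3, PBS 1, PBS 3 and PBS 4, 0 without the Ddx3y libraries and 0 without the high-background libraries). Their median was 0.1, and -0.05 under upper-quartile scaling. Of the collagen chains, 1 of 28 tested members was called higher (0 to 1 without single libraries, moved by HDM 1, HDM 2, HDM 3, PBS 1, PBS 3 and PBS 4, 0 without the Ddx3y libraries and 0 without the high-background libraries). Their median was 0.17. Col3a1, a fibrillar collagen, was the called gene in both lists, with 730, 654 and 1067 CPM in the HDM lungs, against 304, 478, 301 and 254 CPM in the PBS lungs (log2 fold change 1.44 ± 0.27 SE, adjusted p 0.0362). Col1a1 had 413, 489 and 981 CPM in the HDM lungs, against 318, 422, 323 and 261 CPM in the PBS lungs (log2 fold change 1.08 ± 0.31 SE, adjusted p 0.172). Col1a2 had a log2 fold change of 0.92 (adjusted p 0.127). Eln, elastin, had 572, 259 and 828 CPM in the HDM lungs, against 279, 274, 224 and 227 CPM in the PBS lungs (log2 fold change 1.28 ± 0.31 SE, adjusted p 0.0841), HDM 2 lying among the PBS lungs. Timp1, an inhibitor of metalloproteases, had 6.83, 19.4 and 65.8 CPM in the HDM lungs, against 5.5, 13.1, 7.28 and 8.54 CPM in the PBS lungs (log2 fold change 1.97 ± 0.64 SE, adjusted p 0.251), with HDM 1 below 3 of the 4 PBS lungs. Of the smooth muscle and pericyte genes, edgeR called 0 of 22 tested members, while 1 higher and 0 lower had an unadjusted p under 0.05, DESeq2 called 1 higher and 0 lower and limma-voom 0 (without PBS 2, edgeR called 1 higher). Mmp13 had adjusted p values of 0.0767 to 0.0924 without HDM 1, HDM 2, HDM 3 or PBS 3. Mmp19 had adjusted p values of 0.055 to 0.137 without any single library other than PBS 3. Adam8 had adjusted p values of 0.066 to 0.156 without any single library other than PBS 1 or PBS 2. Col3a1 had adjusted p values of 0.0522 to 0.159 without any single library other than PBS 2.

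Of the genes of ERK feedback and immediate early response, 1 of 32 tested members was called higher (0 to 3 without single libraries, moved by HDM 1, HDM 2, HDM 3, PBS 1, PBS 2, PBS 3 and PBS 4, 0 without the Ddx3y libraries and 0 without the high-background libraries). Their median was -0.12. Dusp2, a phosphatase that acts on ERK and is abundant in leukocytes, was the called gene, with 14.3, 13.3 and 19.6 CPM in the HDM lungs, against 8.24, 10.3, 6.07 and 6.41 CPM in the PBS lungs (log2 fold change 1.18 ± 0.24 SE, adjusted p 0.0433). Spry1, a feedback inhibitor of receptor tyrosine kinases, had 59.6, 53 and 58.2 CPM in the HDM lungs, against 86.3, 107, 92.1 and 87.7 CPM in the PBS lungs (log2 fold change -0.55 ± 0.18 SE, adjusted p 0.252), lower in every HDM lung without passing the test. Of the TGF-beta and BMP genes, 1 of 36 tested members was called higher (0 to 1 without single libraries, moved by HDM 1, HDM 2, HDM 3, PBS 2, PBS 3 and PBS 4, 0 without the Ddx3y libraries and 0 without the high-background libraries). Their median was -0.28, and the called gene was Inhba, the activin A subunit, with 6.79, 4.41 and 11.3 CPM in the HDM lungs, against 3.88, 2.84, 2.37 and 2.61 CPM in the PBS lungs (log2 fold change 1.53 ± 0.29 SE, adjusted p 0.0372). A count of 1 in lists of this size lies near the share of all tested genes called higher. Of the eicosanoid genes, 3 of 31 tested members were called higher (1 to 4 without single libraries, moved by PBS 4, 1 without the Ddx3y libraries and 0 without the high-background libraries). Ptgir, the prostacyclin receptor, had 18.7, 19.1 and 21.6 CPM in the HDM lungs, against 5.43, 7.71, 6.16 and 5.14 CPM in the PBS lungs (log2 fold change 1.85 ± 0.22 SE, adjusted p 0.00545). Tbxas1, thromboxane synthase, had a log2 fold change of 1.36 (adjusted p 0.0276). Of the arginine and polyamine genes, 3 of 21 tested members were called higher (1 to 3 without single libraries, moved by HDM 2, PBS 2, PBS 3 and PBS 4, 0 without the Ddx3y libraries and 0 without the high-background libraries). Beside Arg1 they were Gatm, which takes arginine into creatine synthesis, with 11.6, 12.4 and 23.2 CPM in the HDM lungs, against 3.66, 3.63, 3.69 and 2.55 CPM in the PBS lungs (log2 fold change 2.38 ± 0.28 SE, adjusted p 0.00545). Ass1, which remakes arginine, with 49, 54.7 and 55.1 CPM in the HDM lungs, against 41.6, 32.3, 33.4 and 33.2 CPM in the PBS lungs (log2 fold change 0.77 ± 0.16 SE, adjusted p 0.0441). Of the neuropeptide and nerve genes, 1 of 24 tested members was called higher (1 without each single library, 0 without the Ddx3y libraries and 1 without the high-background libraries), and the called gene was Npy. Gal, galanin, had 0.351, 0.24 and 0.362 CPM in the HDM lungs, against 5.37, 0.511, 3.09 and 2.44 CPM in the PBS lungs (log2 fold change -2.95 ± 0.67 SE, adjusted p 0.067), PBS 2 lying near the HDM lungs. Ptgir and Gatm stayed past the threshold without each single library. Ptgir and Gatm had adjusted p values of 0.168 to 0.193 without the Ddx3y libraries. Ptgir and Gatm had adjusted p values of 0.0597 to 0.0724 without the high-background libraries. Dusp2 had adjusted p values of 0.0649 to 0.201 without any single library other than PBS 2. Inhba and Ass1 had adjusted p values of 0.0537 to 0.25 without any single library other than PBS 1. Tbxas1 had adjusted p values of 0.0716 to 0.145 without HDM 1, HDM 2, HDM 3 or PBS 4.

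Of the coagulation and fibrinolysis genes, 2 of 26 tested members were called higher (0 to 3 without single libraries, moved by HDM 1, HDM 2, PBS 1 and PBS 4, 0 without the Ddx3y libraries and 0 without the high-background libraries). F10, clotting factor X, which macrophages also make, had 26.2, 21.9 and 48.5 CPM in the HDM lungs, against 8.96, 7.53, 11.8 and 10.3 CPM in the PBS lungs (log2 fold change 1.89 ± 0.29 SE, adjusted p 0.0152). Procr, the endothelial protein C receptor, had 12.2, 14.7 and 13.8 CPM in the HDM lungs, against 5.46, 8.41, 4.79 and 4.39 CPM in the PBS lungs (log2 fold change 1.4 ± 0.27 SE, adjusted p 0.0383). Of the clock genes, 1 of 18 tested members was called higher (0 to 2 without single libraries, moved by HDM 1, HDM 2, PBS 1, PBS 3 and PBS 4, 0 without the Ddx3y libraries and 0 without the high-background libraries). Bhlhe41, a repressor of the clock that is also a gene of alveolar macrophages, was the called gene, with 52.5, 66.5 and 37.4 CPM in the HDM lungs, against 22.1, 24.1, 22.8 and 18.1 CPM in the PBS lungs (log2 fold change 1.44 ± 0.25 SE, adjusted p 0.0251). Arntl, which encodes the activator BMAL1, had 5.36, 4.31 and 5.18 CPM in the HDM lungs, against 10.2, 10.5, 11.4 and 18.2 CPM in the PBS lungs (log2 fold change -1.19 ± 0.26 SE, adjusted p 0.0582), lower in every HDM lung. Of the tight junction genes, edgeR called 0 of 23 tested members, while 0 higher and 2 lower had an unadjusted p under 0.05, DESeq2 called 0 higher and 2 lower and limma-voom 0 (without PBS 1, edgeR called 1 lower), and of the integrin and leukocyte adhesion genes, 3 of 32 tested members were called higher (1 to 4 without single libraries, moved by PBS 4, 0 without the Ddx3y libraries and 0 without the high-background libraries). F10 had an adjusted p of 0.0759 without PBS 4. Procr had adjusted p values of 0.0562 to 0.204 without any single library other than PBS 2. Bhlhe41 had adjusted p values of 0.0639 to 0.12 without HDM 1, HDM 2, PBS 3 or PBS 4.

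Markers of muscle, blood and fat, which a lung sample can carry along, were read beside the falls. Of the heart muscle markers, 1 of 12 tested members was called lower (0 to 3 without single libraries, moved by HDM 1, HDM 2, HDM 3, PBS 1, PBS 2, PBS 3 and PBS 4, 0 without the Ddx3y libraries and 1 without the high-background libraries). Their median was -0.71. Their summed level was 424 to 623 CPM in HDM lungs, against 499 to 1103 CPM in PBS lungs. The called gene was Tnni3, cardiac troponin I, with 20.4, 16.2 and 26.5 CPM in the HDM lungs, against 48.2, 45.2, 57.4 and 40.8 CPM in the PBS lungs (log2 fold change -1.03 ± 0.21 SE, adjusted p 0.0481). The skeletal muscle markers summed to 36.6 to 49.1 CPM in HDM lungs, against 65.4 to 92.1 CPM in PBS lungs. Their median was -0.82, and 2 of 10 tested members had a positive fold change. Called higher was 1 (0 to 1 without single libraries, moved by HDM 2, HDM 3, PBS 2, PBS 3 and PBS 4, 0 without the high-background libraries) and called lower 0. At an unadjusted p under 0.05, 1 of these markers was higher and 4 were lower. Among them Ckm, muscle creatine kinase, had 7.17, 9.5 and 13.1 CPM in the HDM lungs, against 25.7, 24.3, 23 and 20.4 CPM in the PBS lungs (log2 fold change -1.06 ± 0.23 SE, adjusted p 0.0577), while Pvalb, parvalbumin, was called higher, with 0.807, 2.1 and 1.83 CPM in the HDM lungs, against 0.403, 0.189, 0.159 and 0.259 CPM in the PBS lungs (log2 fold change 2.86 ± 0.52 SE, adjusted p 0.0311). Erythroid markers summed to 4666 to 9206 CPM in HDM lungs, against 7391 to 19240 CPM in PBS lungs, with 0 of 9 called by edgeR, DESeq2 or limma-voom and 0 at an unadjusted p under 0.05. Fat cell markers summed to 124 to 205 CPM in HDM lungs, against 154 to 266 CPM in PBS lungs. Of the lymphatic endothelial genes, edgeR called 0 of 10 tested members, while 3 higher and 0 lower had an unadjusted p under 0.05, DESeq2 called 1 higher and 0 lower and limma-voom 0, and of the thymocyte markers, edgeR called 0 of 6 tested members, while 1 higher and 0 lower had an unadjusted p under 0.05, DESeq2 called 0 higher and 0 lower and limma-voom 0. The part of muscle or blood carried along in the falls was not tested. Tnni3 had adjusted p values of 0.064 to 0.292 without any single library other than PBS 1. Pvalb had adjusted p values of 0.0605 to 0.191 without any single library other than HDM 1 or PBS 1.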

How the data were processed

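RNA of whole lung, kept in RNAlater and extracted with Trizol, was enriched for mRNA and sequenced on an Illumina HiSeq, per the labels' protocols. Trimmomatic 0.36, STAR 2.5.2b and GRCm38 are named per the submitters' processing notes, and the counting tool is not given in the sources used here. The deposited raw columns hold expected counts (estimated reads per gene), and blanks were read as 0. The authors also deposited log2 values centred per gene, which were not tested here. Libraries were assigned by title, 3 HDM and 4 PBS.

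Counts were rounded to whole numbers, filtered with filterByExpr (25174 of 53342 genes kept), TMM-scaled and tested with edgeR 4.0.16 (R 4.3.3), quasi-likelihood F test, Benjamini-Hochberg adjusted over all tested genes, threshold 0.05. Standard errors are the log2 fold change divided by the root of F. CPM were computed from unrounded counts without the TMM factors. Alternatives used DESeq2 1.42.0, limma 3.58.1 (voom), other scalings and filters, and fewer or more libraries.

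Named genes were the 15 largest called rises and falls averaging at least 1 CPM in the higher group without overlap between groups (predicted genes, pseudogenes and variable segments left out), up to 6 members of each list with the smallest p, and a panel of allergy and lung genes. Members and lists were chosen with earlier results of these data known. Gene positions are from GENCODE M21 and promoter windows from RefSeq, both on GRCm38. A few genes that the rule selected are not reported here.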

Additional observations from a re-analysis of the deposited data

Results flagged for a closer look

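Among 165 genes checked in the 4 PBS lungs, 10 had a library whose gap to the nearest other exceeded the limit of Dixon's test. Chance gives such a gap in about 5% of groups, and 10 of 165 lies near that share. The genes were measured in the same 4 libraries, so they are not independent observations. PBS 2 accounted for 6 of the 10, and it is the only PBS library with Ddx3y above 10 CPM. Ighg1 had 274 CPM in PBS 2, against 41.1 to 70.4 CPM in the other PBS lungs. Slamf7 had 11.2 CPM in PBS 2 and 6.18 to 6.38 CPM in the others. Trac had 15.5 CPM in PBS 2 and 8.82 to 9.29 CPM in the others, and Pdcd1 had 3.2 CPM in PBS 2 and 1.04 to 1.22 CPM in the others. Il21 had 0.0353 CPM in PBS 2 and 0 CPM in the others, so any level in PBS 2 would have passed the limit. Spp1 was lowest in PBS 2, with 63.8 CPM against 93.6 to 96.1 CPM in the others. All 6 genes were called higher in HDM lungs, but 126 of the genes named here were called, so this follows largely from how the genes were chosen.

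In PBS 1, Foxj1 had 241 CPM, against 139 to 156 CPM in the other PBS lungs, and Ass1 had 41.6 CPM, against 32.3 to 33.4 CPM. In PBS 4, Gatm was lowest, with 2.55 CPM against 3.63 to 3.7 CPM in the others, and Arntl was highest, with 18.2 CPM against 10.2 to 11.4 CPM. In mice given SF-3-030 and HDM, whose libraries enter only an alternative fit here, H2-Ea-ps had 331 CPM at its lowest. The HDM and PBS libraries had 0.107 to 0.953 CPM, although all share the same strain label.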

How the results depend on the processing

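The numbers of genes called higher and lower depended on the settings. Called higher and lower were 865 and 197 genes with DESeq2, 794 and 44 with background as a covariate, 191 and 13 with Ddx3y as a covariate, 226 and 30 with upper-quartile scaling (which moved the median of all genes by -0.16 on the log2 scale), 75 and 0 without the Ddx3y libraries, 39 and 6 without the high-background libraries, and 78 and 3 at an adjusted p under 0.01. A filter of 1 CPM in 3 libraries called 480 and 36, and a joint fit with the SF-3-030+HDM libraries called 608 and 77. Leaving out single libraries gave 88 (without PBS 4) to 498 rises and 3 (without HDM 2) to 46 falls (without PBS 1). No pairing by replicate number is stated. Deviations of same-numbered libraries correlated by -0.53, 0.20 and -0.65, and 3 such values cannot decide whether samples were paired. A fit with the replicate block called 123 and 3. RLE scaling, limma-voom and no filter moved neither count by over 1.5 times.

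Of 126 called genes among those named, 33 were past the threshold without each single library, and 86 were lost without PBS 4 and 85 without HDM 2. Uncalled genes changed sign. Without the Ddx3y libraries, Ccl24 had a log2 fold change of -0.93, Il13 one of -1.32, Sftpc one of -0.47 and Timp1 one of -0.053. Without single libraries Il13 ranged over -0.16 (without HDM 3) to 1.77, and Sftpc over -0.083 (without HDM 3) to 0.29. Sftpc was at -0.06 with upper-quartile scaling, -0.043 without the high-background libraries and -0.019 in the joint fit. The causes were not tested. The difference in immunoglobulin share lay between 3.7 and 5.84 percentage points in every alternative. With 3 and 4 libraries, a small change can miss the threshold, and a missed threshold does not show equal levels.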

Other observations

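Called genes lay beside each other at several places of the genome (GRCm38, neighbours within 200 kb of each other, the span given from the start of the first to the end of the last called gene, without immunoglobulin segments). Each span begins and ends at a called gene, so its share of called genes is raised by construction. Over all tested genes, 1.88% were called. How many such runs position alone would give was not tested. On chr17:33875659-34341412, in the major histocompatibility complex, 7 of 39 tested genes were called: Kifc1, a mitotic kinesin, the class I gene H2-K1, and the class II genes H2-Oa, H2-DMb2, H2-Ab1, H2-Aa and H2-Eb2. On chr1:170917576-171234365, 5 of 13 were called, among them the IgG receptors Fcgr2b, Fcgr3 and Fcgr4 and their signalling chain Fcer1g. On chr1:171518122-171953170, 5 of 13 were called, namely Itln1 and the SLAM family receptors Ly9, Slamf7, Cd84 and Slamf6. On chr11:83572919-83752642, 5 of 8 were called, the chemokines Ccl3, Ccl6 and Ccl9 with Wfdc17 and Wfdc21. On chr15:78191114-78353847, all 4 tested genes were called: Csf2rb and Csf2rb2, beta chains of the receptors for IL-3, IL-5 and GM-CSF, Ncf4, a subunit of the phagocyte oxidase, and Pvalb. Reads shared by related neighbours may have been split between them in counting, so single values within these families are uncertain.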
